A study of Mus musculus with 6 samples.

Results

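The SREBP module is a set of 33 listed genes of sterol synthesis, fatty acid synthesis and their control by the sterol regulatory element-binding proteins (SREBPs). The genes were taken by name from the non-control probes of a mouse whole-genome microarray, and 32 of the 33 were found among 37067 named genes, with 68 probes. No probe carried the name Acat2, the cytosolic thiolase that starts the pathway. The genes found comprised 16 of sterol synthesis, 10 of fatty acid synthesis, and 6 of SREBP regulation and sterol transport. All 32 were well above background on 6 of 6 arrays, so none entered the comparisons through one group alone.

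RNA came from the cochleae of female C57BL/6 mice aged 6 weeks, and 1 array was hybridised for each of 6 groups. Baseline mice received neither noise nor drug. Noise-only mice were exposed to intense noise for 2 h, and the labels give no interval between noise and dissection. The other 4 groups had the same noise, and straight after it saline or dexamethasone at 10 mg/kg was injected into the peritoneum. They were dissected at 12 h or 24 h. Dexamethasone is a synthetic glucocorticoid given to patients with acute hearing loss. The study design lists 6 mice in a group, and the sources used here do not say whether their RNA was pooled. With 1 array per group, no comparison of 2 arrays has a replicate error or a p-value.

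SREBPs are transcription factors made as precursors in the membrane of the endoplasmic reticulum. When membrane sterol is low, Scap escorts the precursor to the Golgi, where proteases release the part that enters the nucleus, and Insig proteins hold the complex back when sterol is plentiful. The product of Srebf2 acts mainly on genes of cholesterol synthesis, and the liver-type product of Srebf1 mainly on genes of fatty acid synthesis. In the cochlea, the myelin of spiral ganglion neurons is built from sterols and long-chain lipids, and membrane cholesterol affects the motor protein of outer hair cells.

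Between 63.0% and 70.3% of probes were well above background on each array, and replicate spots of a probe differed by a standard deviation of 0.036 to 0.039 on the log2 scale. The 2 arrays of the 12 h groups lay on one slide and had their own scan, while the other 4 arrays lay on another slide. Slide and time therefore cannot be told apart, and comparisons of a 12 h array with baseline cross slides. Of 15 cochlear marker genes, 12 to 14 were well above background on each array. Slc26a5, the outer hair cell motor protein, was not well above background on any.

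Levels below are log2 signals relative to the 75th percentile of the same array, and each value is that of the probe with the highest mean for the gene. Signals of different genes are not comparable on this scale. The interval in brackets after a difference spans 1.96 times the spot error given by the scanner software, and it covers spot error only. That error includes a preset multiplicative part and was 0.204 to 0.206 for every gene and comparison. The phrase beyond spot error therefore marks a nearly fixed cut-off, not an error measured for each gene. Replicate spots of a probe differed by less, with a standard deviation of 0.036 to 0.039.

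The module had its highest level in one array. The dexamethasone 24 h array held the highest value for 27 of 32 genes, including 15 of 16 sterol genes and 10 of 10 fatty acid genes, against 17.8% of the 22318 genes that were well above background on all 6 arrays. The saline 12 h array held the lowest value for 17 of 32 genes, against 24.9% of all genes. Ebp, the sterol isomerase, had its highest value in saline 12 h and its lowest in dexamethasone 24 h, but its second probe gave opposite signs, -0.08 for saline 12 h against baseline and 0.31 for dexamethasone against saline at 24 h. In bulk tissue, fewer cells of a type and less RNA per cell cannot be told apart.

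These positions depend on how arrays are set on one scale. When arrays were scaled on 7 spike-in probes in place of the 75th percentile, baseline was highest for 21 of 32 genes and for 59.5% of all genes. Dexamethasone 24 h was then highest for 5 of 32, or 15.6%, against 3.3% of all genes, and saline 12 h was lowest for 31 of 32, against 65.2%. Under the other scalings tried, dexamethasone 24 h stayed highest for 27. With a gene's probes averaged it was highest for 25 of 32, against 18.2% of all genes. These included 15 of 16 sterol and 9 of 10 fatty acid genes.

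**Figure D1:**
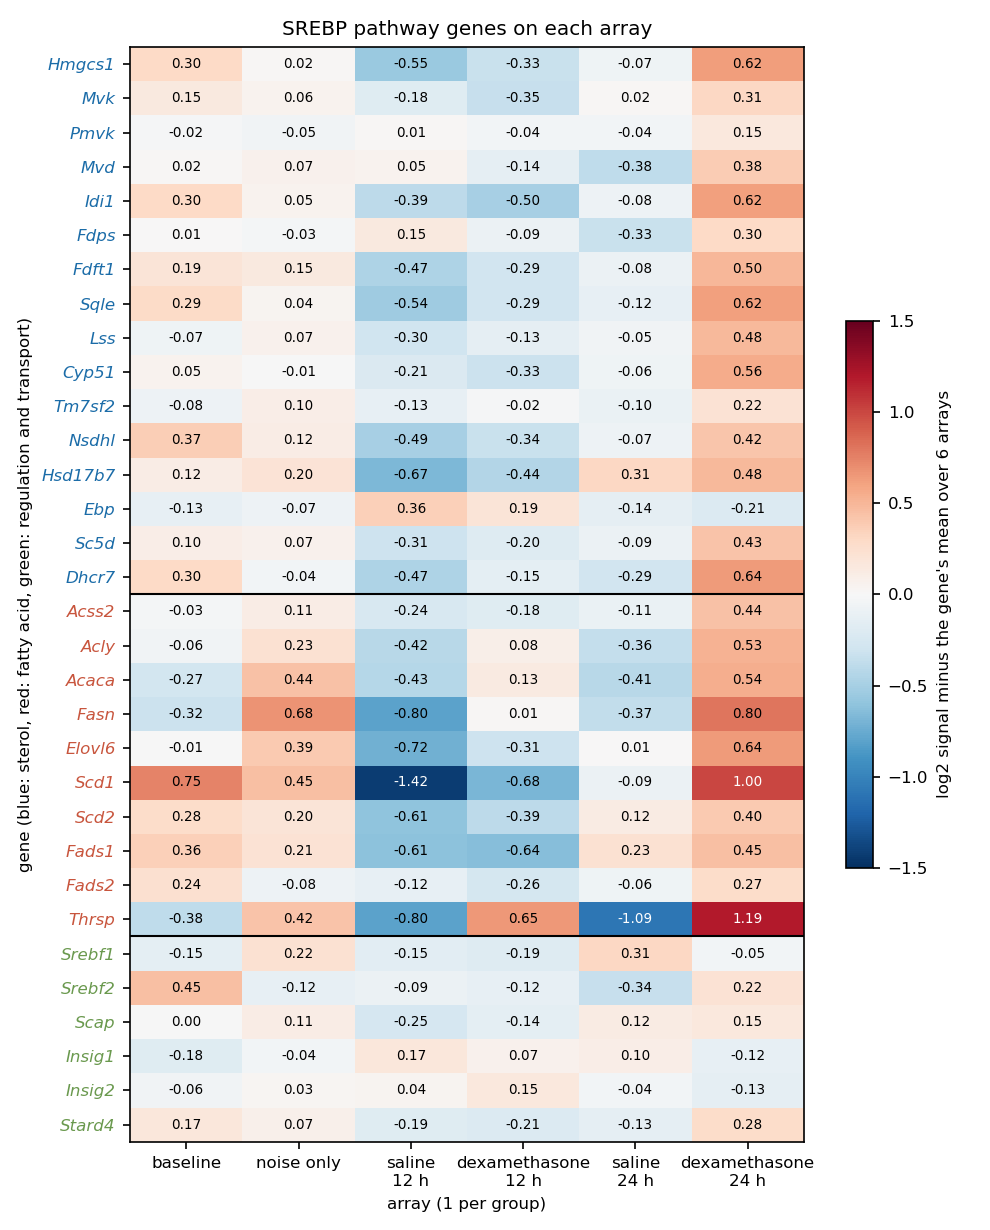
Heat map of the 32 genes (rows, coloured by role) on the 6 arrays (columns), showing log2 signal minus the gene's mean over the 6 arrays, with 1 array per group. The dexamethasone 24 h column is the highest for 27 genes, and Scd1 in saline 12 h (-1.42) and Thrsp in dexamethasone 24 h (1.19) are the extreme cells.

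The branches were compared within each array by the median centred level of their genes, a contrast that shifting a whole array by a constant cannot alter. Other processing can alter it. For saline 12 h against baseline, the sterol and fatty acid medians were -0.37 and -0.45 with the main scaling. They were -0.37 and -0.62 with quantile normalization, and -0.40 and -0.67 with probe averaging. The fatty acid median exceeded the sterol median by 0.26 in the noise-only array, by 0.08 in dexamethasone 24 h and by 0.03 in dexamethasone 12 h. It was below the sterol median by a difference of -0.31 in saline 12 h, -0.13 at baseline and -0.02 in saline 24 h. Noise-only and saline 12 h were thus the 2 arrays in which the branches were farthest apart, in opposite directions.

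Promoter sequences were examined because 15 of 16 sterol genes shared their highest array. RefSeq promoter sequence of the GRCm38.p6 build was held for 25 of the 32 genes, and the 250 bases before the start were searched on both strands. The motifs were the classical sterol regulatory element (TCACNCCAC), the CCAAT box (CCAAT), bound by NF-Y, the GC box (GGGCGG), bound by Sp1, and an E-box (CACGTG), and none of them lies within another. Below are 1 promoter of the sterol branch and the promoters of the 2 fatty acid genes with the largest differences, with matches to the sterol element or the CCAAT box in capitals. Hmgcs1 lies at chr13:119690101-119690350 on the plus strand, Fasn at chr11:120824548-120824797 on the minus strand and Thrsp at chr7:97417551-97417800 on the minus strand, each written 5′ to 3′ along the gene.
Hmgcs1: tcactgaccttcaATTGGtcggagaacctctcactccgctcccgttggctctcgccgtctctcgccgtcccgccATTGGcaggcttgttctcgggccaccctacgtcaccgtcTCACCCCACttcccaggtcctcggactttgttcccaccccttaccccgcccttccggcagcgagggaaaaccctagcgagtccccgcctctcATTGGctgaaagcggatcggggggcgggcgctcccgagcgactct
Fasn: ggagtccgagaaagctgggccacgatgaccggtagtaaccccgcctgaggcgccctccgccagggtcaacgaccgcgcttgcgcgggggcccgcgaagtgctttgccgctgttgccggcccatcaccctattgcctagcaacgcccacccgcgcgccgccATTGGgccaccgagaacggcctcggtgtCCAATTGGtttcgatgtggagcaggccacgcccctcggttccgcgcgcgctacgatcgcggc
Thrsp: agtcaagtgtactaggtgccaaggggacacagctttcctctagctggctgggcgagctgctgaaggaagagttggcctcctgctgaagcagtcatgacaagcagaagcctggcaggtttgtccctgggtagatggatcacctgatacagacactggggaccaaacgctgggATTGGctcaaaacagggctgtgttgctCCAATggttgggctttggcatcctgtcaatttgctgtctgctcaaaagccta

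The Hmgcs1 window held 1 exact sterol element, 137 to 129 bases before the start, with CCAAT boxes on either side of it. Fasn held 3 CCAAT matches, 2 of which overlap on opposite strands, and Thrsp held 2. A CCAAT box was present in 13 of 13 sterol promoters and 3 of 7 fatty acid promoters, against 37.5% of promoters of 27025 genes. The GC box was present in 12 of 13 sterol and 3 of 7 fatty acid promoters, against 35.4%. The E-box was present in 5 of 25 promoters, against 6.86%. Hmgcs1 was the only 1 of 25 with the exact sterol element, against 1.22%. These matches describe letters in the window.

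Dexamethasone was set against saline first at 24 h, where both arrays shared a slide. The module was higher in dexamethasone: 28 of 32 genes were above saline (49.2% of 22562 genes measured on both arrays), and 14 were at least 1.5-fold higher (5.22%), while 0 were at least 1.5-fold lower (5.89%). The median difference was 0.56 for the sterol branch and 0.76 for the fatty acid branch, against -0.01 for all genes. Beyond spot error, 20 of 32 genes were higher (8.66% of all genes) and 0 were lower (9.56%). With spike-in scaling 27 genes were above saline, where the median of all genes was -0.09. In the module 10 were then at least 1.5-fold higher, against 916 of 22562 genes. The 20 genes beyond spot error comprised 11 sterol genes, 7 fatty acid genes, Srebf2 and Stard4.

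In the sterol branch, Hmgcs1, which makes the substrate of the rate-limiting reductase, had levels of 4.71 at baseline, 4.43 after noise only, 3.86 in saline 12 h, 4.08 in dexamethasone 12 h, 4.34 in saline 24 h and 5.03 in dexamethasone 24 h. Dexamethasone 24 h was highest, and both 12 h arrays were lowest. The difference at 24 h was 0.69 (0.29 to 1.09), or 1.61-fold.

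Sqle, the squalene epoxidase, had levels of 3.08 at baseline, 2.83 after noise only, 2.25 in saline 12 h, 2.50 in dexamethasone 12 h, 2.67 in saline 24 h and 3.40 in dexamethasone 24 h. Its order over the arrays was that of Hmgcs1, and its difference at 24 h was 0.74 (0.34 to 1.14). Dhcr7, which reduces the last double bond to give cholesterol, had the largest difference of the branch at 24 h. Its levels were -0.49 at baseline, -0.83 after noise only, -1.26 in saline 12 h, -0.94 in dexamethasone 12 h, -1.08 in saline 24 h and -0.15 in dexamethasone 24 h. The difference at 24 h was 0.93 (0.52 to 1.33), or 1.90-fold, and dexamethasone 24 h was the only array above baseline.

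The isoprenoid steps gave values of similar size at 24 h. Mvd, the mevalonate diphosphate decarboxylase, was higher by 0.75 and Idi1, the isopentenyl diphosphate isomerase, by 0.69. Fdps, the farnesyl diphosphate synthase, was higher by 0.63, and Fdft1, the squalene synthase, by 0.59. The kinases upstream of them were less far apart, at 0.29 for Mvk and 0.20 for Pmvk, both within spot error.

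After squalene, Cyp51, the lanosterol demethylase, was higher by 0.62, Lss, the lanosterol synthase, by 0.53, and Sc5d, the sterol desaturase, by 0.52. Nsdhl, a demethylating dehydrogenase, was higher by 0.49. These 4 lay beyond spot error. Tm7sf2, a sterol reductase, at 0.32, Hsd17b7, a ketoreductase, at 0.18, and Ebp at -0.07 did not. Ebp was below saline at this probe alone, and with probes averaged 16 of 16 sterol genes were above saline.

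In the fatty acid branch, Fasn, the fatty acid synthase, had levels of 5.78 at baseline, 6.78 after noise only, 5.30 in saline 12 h, 6.11 in dexamethasone 12 h, 5.72 in saline 24 h and 6.90 in dexamethasone 24 h. Dexamethasone 24 h and noise only were the highest arrays, and each dexamethasone array was above the saline array of its time. The difference at 24 h was 1.18 (0.78 to 1.58), or 2.26-fold, from a probe at chr11:120668460-120668519 (mm9).

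Acaca encodes the acetyl-CoA carboxylase that supplies malonyl-CoA to Fasn. Its levels were 3.20 at baseline, 3.91 after noise only, 3.04 in saline 12 h, 3.60 in dexamethasone 12 h, 3.06 in saline 24 h and 4.02 in dexamethasone 24 h. The order was that of Fasn, with the saline arrays near baseline and the noise-only array near dexamethasone 24 h. The difference at 24 h was 0.96 (0.56 to 1.36).

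Scd1, the stearoyl-CoA desaturase, had levels of 3.86 at baseline, 3.56 after noise only, 1.70 in saline 12 h, 2.44 in dexamethasone 12 h, 3.03 in saline 24 h and 4.11 in dexamethasone 24 h. Both 12 h arrays were far below the other 4. The difference at 24 h was 1.08 (0.69 to 1.49), or 2.12-fold.

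Thrsp, a small lipogenic protein that acts with acetyl-CoA carboxylase, had the largest difference of the module. Its levels were 3.12 at baseline, 3.92 after noise only, 2.70 in saline 12 h, 4.15 in dexamethasone 12 h, 2.41 in saline 24 h and 4.70 in dexamethasone 24 h. Both dexamethasone arrays were above all 4 others, and both saline arrays were below all others. The difference at 24 h was 2.28 (1.88 to 2.68), or 4.86-fold (3.68 to 6.41), and a second Thrsp probe gave 2.46.

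Of the remaining fatty acid genes, Acly, the citrate lyase that makes cytosolic acetyl-CoA, was higher by 0.89 at 24 h. Elovl6, an elongase, was higher by 0.63 and Acss2, the acetyl-CoA synthetase, by 0.55. These lay beyond spot error. The desaturases Fads2 at 0.33, Scd2 at 0.27 and Fads1 at 0.22 did not.

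At 12 h, both arrays again shared a slide, and the difference lay in the fatty acid branch. Of 32 genes, 19 were above saline (47.1% of 24016 genes), 3 were at least 1.5-fold higher (5.23%) and 0 were at least 1.5-fold lower (7.56%). The 3 were Thrsp at 1.46 (1.06 to 1.86), Fasn at 0.82 (0.42 to 1.22) and Scd1 at 0.74 (0.34 to 1.14). Beyond spot error, 6 of 32 genes were higher (9.57% of all genes), and all 6 were fatty acid genes: these 3 with Acaca at 0.56, Acly at 0.50 and Elovl6 at 0.41. Of the 6 other Acaca probes, 1 gave -0.24, and the second Acly probe gave 0.18. No gene of the module was lower beyond spot error, against 13.3% of all genes.

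The median at 12 h was 0.46 for the fatty acid branch and 0.11 for the sterol branch, against -0.03 for all genes. No sterol gene lay beyond spot error at 12 h, and their differences ran from -0.24 for Fdps to 0.32 for Dhcr7. Scaling on the spike-in probes raised the median of all genes at 12 h to 0.27, and 32 of 32 module genes were then above saline. In the module 7 were then at least 1.5-fold higher, against 4175 of 24016 genes. Relative to the median of all genes, the sterol median was 0.13 and the fatty acid median 0.48. That scaling cannot change these 2 values, since it shifts all genes of an array alike.

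**Figure D2:**
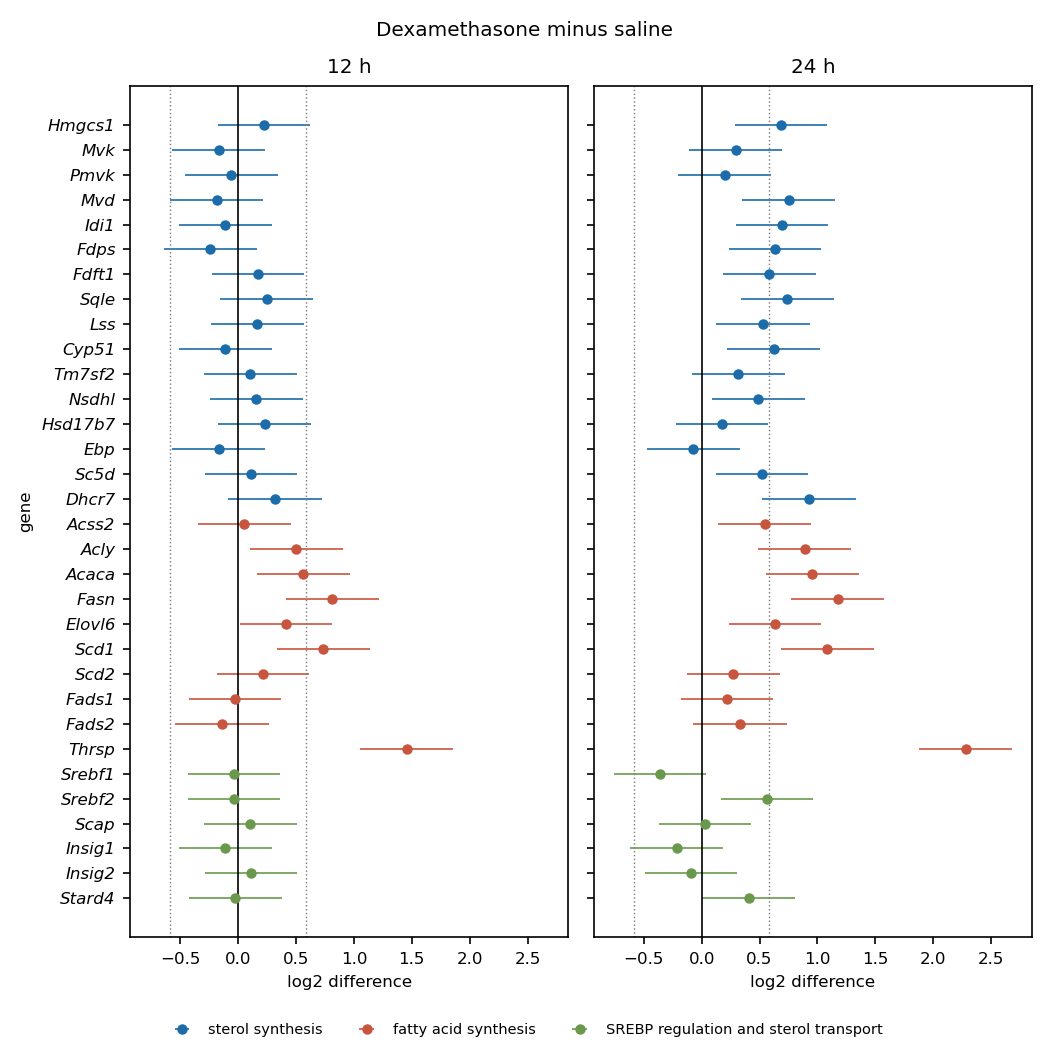
Log2 difference between the dexamethasone and saline arrays for each gene at 12 h (left) and 24 h (right), 1 array per group, with bars of 1.96 spot errors and dotted lines at 1.5-fold. At 12 h the genes beyond spot error are all fatty acid genes, and at 24 h most sterol genes lie to the right of 0 as well, with Thrsp the largest at 2.28.

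Across both times, 18 of 32 genes were above saline at both, against 28.8% of 22354 genes, comprising 9 sterol genes, 8 fatty acid genes and Scap. Only 3, namely Ebp, Srebf1 and Insig1, were below at both, against 7353 of the 22354 genes. The difference was larger at 24 h than at 12 h for 27 of 32 genes, including 15 of 16 sterol and 10 of 10 fatty acid genes, against 54.2% of all genes. With spike-in scaling 27 of 32 genes were above saline at both times (32.5% of all genes) and 0 were below at both (3873 of 22354 genes). The difference was then larger at 24 h for 17 of 32 genes, 10 of 16 sterol and 5 of 10 fatty acid genes, against 16.0% of all genes.

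A linear model over the 4 treated arrays (limma), with time as a term and the 2 times as the observations of the treatment difference, had 1 residual degree of freedom per gene. No gene of 24598 passed a Benjamini-Hochberg adjusted p of 0.05, and 3607 had an unadjusted p under 0.05; in the module the counts were 0 and 10 of 32. The estimate was 1.87 ± 0.22 (SE) for Thrsp (limma, adjusted p = 0.161), 1.00 ± 0.13 for Fasn (adjusted p = 0.161) and 0.91 ± 0.14 for Scd1 (adjusted p = 0.163). The other 7 genes with an unadjusted p under 0.05 were Acaca, Acly, Elovl6, Dhcr7, Sqle, Hmgcs1 and Fdft1, with limma estimates of 0.38 to 0.76. Without the dexamethasone 12 h array, and so with no time term, 20 genes passed, of which 0 were in the module.

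The count of calls also changed with 2 further settings. With spike-in scaling 587 genes passed, 4 of them in the module, and with no filter on dim genes 928 passed, 5 of them in the module. Adjusted p-values of Thrsp over all limma settings ran from 1.37e-10 with spike-in scaling to 1 without a time term.

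The 3 comparisons with baseline describe the arrays after noise, and they share the baseline array. After noise only, the fatty acid branch was split and the sterol branch was near baseline. Of 32 genes, 15 were above baseline (47.7% of 23997 genes; 10 with spike-in scaling), 3 were at least 1.5-fold higher (6.39%) and 0 were at least 1.5-fold lower (8.7%). The median was 0.21 for the fatty acid branch and -0.04 for the sterol branch, against -0.02 for all genes.

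The 3 genes were Fasn at 1.00 (0.60 to 1.40), Thrsp at 0.80 (0.40 to 1.20) and Acaca at 0.71 (0.31 to 1.11). All 6 other measured Acaca probes and the second Thrsp probe gave the same sign. Elovl6 at 0.40 and Acly at 0.28 were above baseline within spot error, while the 4 desaturases lay below it, from -0.08 for Scd2 to -0.32 for Fads2. Other probes gave 0.27 and 0.00 for Fads1, so its direction in this array was not settled. The other 4 probes of Fads2 gave 0.17, -0.30, -0.77 and -0.95, and the second Scd1 probe gave -0.01. Beyond spot error, these 3 of 32 genes were higher (9.63% of all genes), and Srebf2 was the only gene lower (12.3%). No sterol gene lay beyond it, and Dhcr7 had the lowest sterol value at -0.34.

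In saline 12 h, both branches were below baseline. Of 32 genes, 26 were below (44.9% of 24122 genes), 11 were at least 1.5-fold lower (10.7%) and 0 were at least 1.5-fold higher (14.7%). The median was -0.37 for the sterol branch and -0.45 for the fatty acid branch, against 0.06 for all genes. Beyond spot error, 15 of 32 were lower (17.0% of all genes), and Ebp was higher at 0.48 (22.3% of all genes), a sign that turned at its second probe and with spike-in scaling, where no gene of the module was above baseline.

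Scd1 had the largest value, -2.17 (-2.57 to -1.77), or 4.48-fold lower, although its second probe gave -0.50. Fads1, a desaturase of polyunsaturated fatty acids, followed at -0.98 and Scd2 at -0.89. Fads2 was at -0.36, but its 4 other probes ran from -0.78 to -1.96. The 7 sterol genes at least 1.5-fold lower were Nsdhl at -0.86, Hmgcs1 at -0.86, Sqle at -0.83, Hsd17b7 at -0.79, Dhcr7 at -0.77, Idi1 at -0.69 and Fdft1 at -0.65. Other probes gave the opposite sign for Hmgcs1 (0.37) and, at 1 of 2 probes, for Hsd17b7 (0.02). With spike-in scaling the median of all genes was -0.74, and 30 of 32 module genes were at least 1.5-fold lower, against 15088 of 24122 genes.

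In saline 24 h, on the slide of the baseline array, the values were smaller. Of 32 genes, 25 were below baseline (48.8% of 22817 genes), 4 were at least 1.5-fold lower (5.3%) and 0 were at least 1.5-fold higher (4.93%). The 4 were Scd1 at -0.84, Srebf2 at -0.79 (-0.21 at its second probe), Thrsp at -0.71 and Dhcr7 at -0.59. Beyond spot error, 6 of 32 were lower (8.82% of all genes), and Srebf1 was the only gene higher (8.38%). The median was -0.23 for the sterol branch and -0.15 for the fatty acid branch, against 0.01 for all genes. Fasn, at -0.05, was near baseline in this array, in contrast to its value after noise only.

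**Figure D3:**
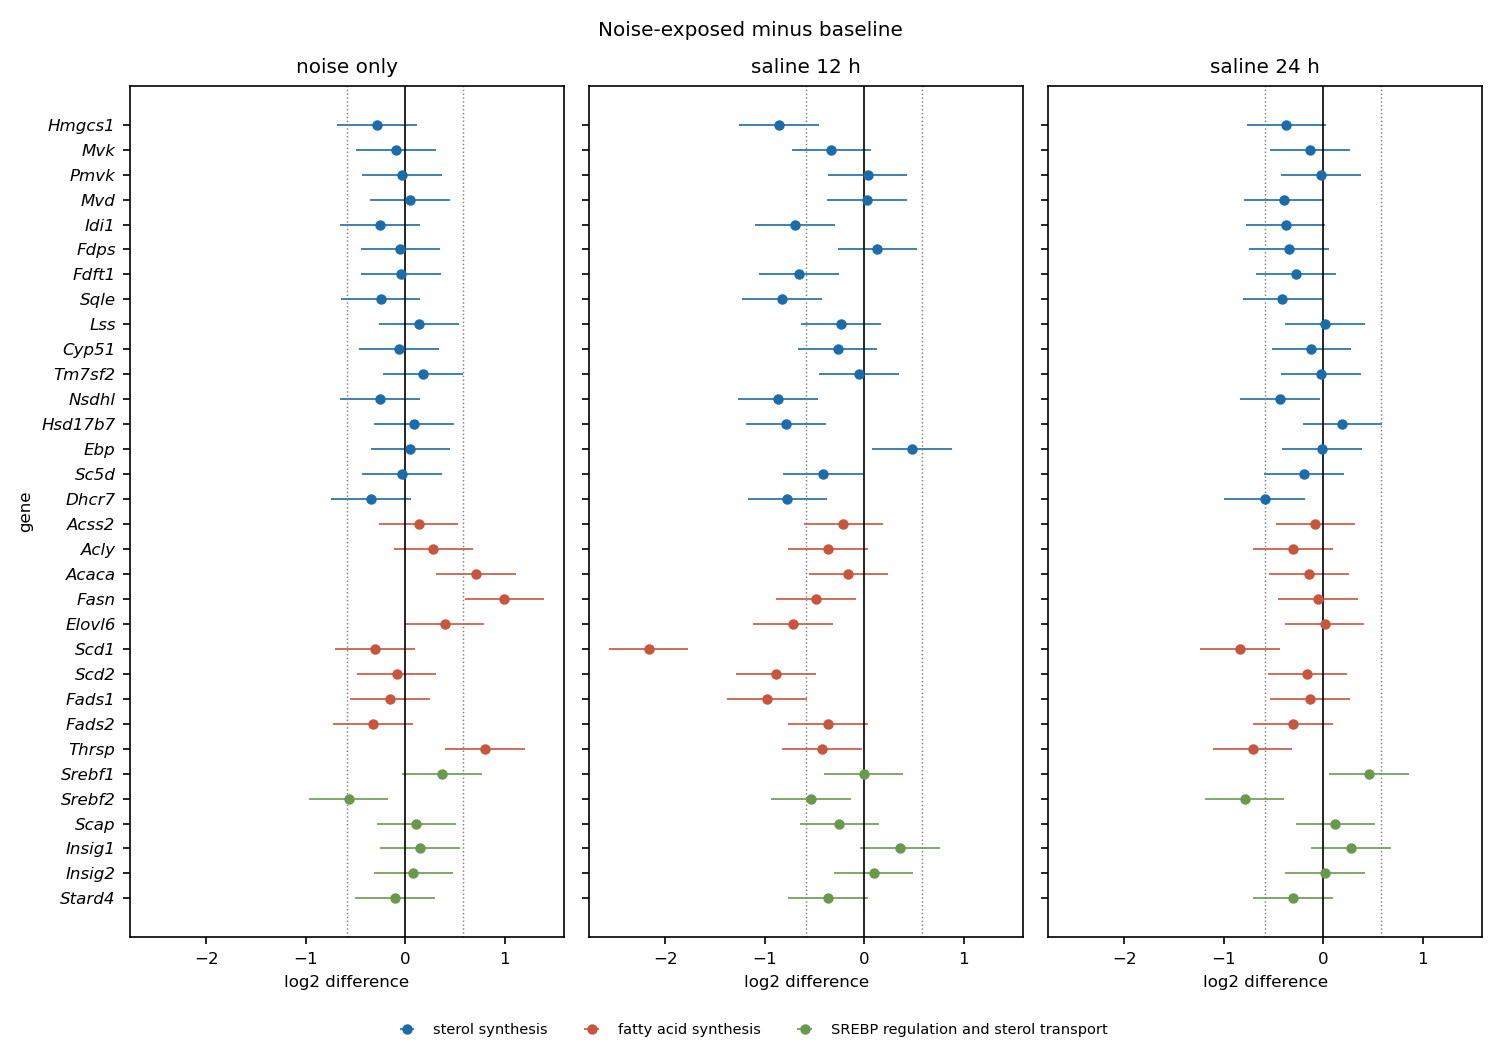
Log2 difference from the baseline array for each gene in the noise-only, saline 12 h and saline 24 h arrays, 1 array per group, with bars of 1.96 spot errors and dotted lines at 1.5-fold. Fasn, Thrsp and Acaca lie to the right after noise only, and Scd1 lies farthest to the left in saline 12 h at -2.17.

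The regulators were divided. Srebf2 and Stard4 were higher beyond spot error in dexamethasone 24 h, as most enzymes were, while Srebf1, Insig1 and Insig2 were below saline within spot error. Srebf1 had levels of 4.15 at baseline, 4.53 after noise only, 4.15 in saline 12 h, 4.11 in dexamethasone 12 h, 4.62 in saline 24 h and 4.26 in dexamethasone 24 h. It was highest in saline 24 h, where Thrsp was lowest. Dexamethasone minus saline was -0.36 (-0.76 to 0.04) at 24 h and -0.04 at 12 h, while most fatty acid genes were above saline.

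Srebf2 had levels of 2.11 at baseline, 1.54 after noise only, 1.58 in saline 12 h, 1.54 in dexamethasone 12 h, 1.32 in saline 24 h and 1.89 in dexamethasone 24 h. Baseline was highest, and 3 of the 5 noise-exposed arrays lay together near the middle. The difference from baseline was -0.57 (-0.97 to -0.17) after noise only, -0.53 in saline 12 h and -0.79 in saline 24 h. A second Srebf2 probe gave -0.38, -0.02 and -0.21 for these, none of them 1.5-fold. Dexamethasone minus saline was 0.56 (0.16 to 0.96) at 24 h and -0.04 at 12 h, against 0.26 and -0.23 at the second probe.

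Insig1, which retains the SREBP complex in the endoplasmic reticulum and is itself an SREBP target, had levels of -0.83 at baseline, -0.68 after noise only, -0.47 in saline 12 h, -0.58 in dexamethasone 12 h, -0.54 in saline 24 h and -0.76 in dexamethasone 24 h. Its lowest values were at baseline and in dexamethasone 24 h, the 2 arrays with the highest median of the sterol branch. Insig1 lay within spot error in all 5 comparisons, with a difference at 24 h of -0.22 (-0.62 to 0.19), so its order over the arrays is not settled. Insig2, its paralogue, and Scap also lay within spot error in all 5 comparisons, with differences at 24 h of -0.09 and 0.03. Stard4, a soluble sterol carrier, was higher by 0.41 (0.01 to 0.81) in dexamethasone 24 h.

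Other genes of the pathway outside the module were measured as a list of SREBP-related and lipogenic genes. At 24 h, 17 of 25 measured genes were above saline, 4 of them at least 1.5-fold, with a median of 0.16. The highest was Slc25a1, the mitochondrial citrate carrier, at 0.95, and the lowest was Ggps1, the geranylgeranyl diphosphate synthase, at -0.26. At 12 h, 14 of 25 were above saline with a median of 0.05, and Mlxipl, the carbohydrate-response factor, was highest at 0.71. Mlxipl was also the highest of the list in each noise-exposed array set against baseline, at 0.99 after noise only, 0.73 in saline 12 h, where the sign turned with spike-in scaling, and 0.74 in saline 24 h.

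Targets of the oxysterol receptors and oxysterol enzymes had medians near 0 for dexamethasone against saline, at 0.00 for 24 h and 0.02 for 12 h over 13 genes. Ch25h, the cholesterol 25-hydroxylase, was the highest of that list after noise only (1.17), in saline 12 h (1.18) and in saline 24 h (1.21). Genes of fatty acid oxidation were above saline in 13 of 15 at 24 h, with a median of 0.49 and Ppara highest at 0.73. They were above saline in 11 of 15 at 12 h, with a median of 0.15. Synthesis and oxidation genes were thus both higher in the dexamethasone 24 h array. Of 10 known glucocorticoid receptor targets, 9 were above saline at 12 h (47.1% of all genes), with a median of 0.21. At 24 h they were split: 5 were above saline and 5 below (49.2% of all genes above), with a median of 0.10. Their differences at 24 h ran from -0.73 for Per1 to 0.91 for Cdkn1a.

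Markers of lipid-rich cell types also differed between arrays, and their part in the results was not tested. All 10 adipocyte markers were well above background on all 6 arrays, and none was at 0. At 24 h, 9 of 10 were above saline, 8 of them at least 1.5-fold, with a median of 0.93. Plin1, the lipid droplet protein, was highest at 1.90 and Lep lowest at -0.16. At 12 h, 9 of 10 were above saline with a median of 0.58.

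The summed signal of the adipocyte markers relative to baseline was 1.01 after noise only, 0.60 in saline 12 h, 0.91 in dexamethasone 12 h, 0.68 in saline 24 h and 1.62 in dexamethasone 24 h. The same sum over the fatty acid branch was 1.36, 0.64, 0.97, 0.87 and 1.61 in the same order. The sums followed each other on the treated arrays, and after noise only the fatty acid sum was above baseline while the adipocyte sum was near it. Sums of this kind weigh the brightest probes most. In the noise-only array the brightest fatty acid probe was that of Fasn, which was 1.00 above baseline, while 4 of 10 fatty acid genes were below baseline.

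Myelin markers were set beside the sterol branch. All 15 Schwann cell and myelin markers were well above background on all 6 arrays, and 13 of 15 were above saline at 24 h, with a median of 0.29. At 12 h, 7 of 15 were above saline, with a median of -0.12, while the sterol median was 0.11. Their summed signal relative to baseline was 0.83 after noise only, 0.70 in saline 12 h, 0.61 in dexamethasone 12 h, 0.94 in saline 24 h and 1.17 in dexamethasone 24 h. The sterol sum was 0.93, 0.83, 0.82, 0.86 and 1.19 in the same order. Both sums were highest in dexamethasone 24 h, and they ranked noise only and saline 24 h in opposite order.

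Oligodendrocyte markers, which would come from the central part of the nerve, were above saline in 7 of 7 at 24 h, with a median of 0.99, and in 2 of 6 at 12 h, with a median of -0.28. Against baseline, 7 of 7 were lower after noise only (median -0.998), 7 of 7 in saline 12 h (-1.59) and 6 of 7 in saline 24 h (-0.99). Their summed signal relative to baseline was 0.78 after noise only, 0.33 in saline 12 h, 0.42 in dexamethasone 12 h, 1.05 in saline 24 h and 1.23 in dexamethasone 24 h. That sum rests mostly on Ermn, the brightest probe of the list, which was 0.23 above baseline in saline 24 h. Cochlear markers had a median of -0.38 at 24 h and -0.01 at 12 h.

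Lists for other tissues also differed between arrays, and their part in the results was not tested. At 24 h the dexamethasone minus saline median was -0.58 for skeletal muscle, -0.67 for epidermal and sebaceous, -0.68 for blood and marrow, -1.04 for proliferation and -1.20 for cerebellar markers, and -0.01 for mucosal gland markers. Of 7 mucosal gland markers, 3 were at least 1.5-fold higher, with Bpifb1 highest at 2.65. At 12 h the medians were -0.90 for proliferation, -0.88 for blood and marrow, -0.52 for skeletal muscle, -0.06 for epidermal and sebaceous, 0.22 for cerebellar and 0.60 for mucosal gland markers.

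Against baseline, the noise-only medians were 3.05 for cerebellar, 0.73 for skeletal muscle, -0.35 for mucosal gland, -1.09 for blood and marrow, -1.09 for proliferation and -1.96 for epidermal and sebaceous markers. In saline 12 h the medians were 1.84 for skeletal muscle, 1.46 for epidermal and sebaceous, 1.55 for mucosal gland, 2.24 for cerebellar, 0.71 for blood and marrow and 0.19 for proliferation markers. In saline 24 h they were 0.92 for skeletal muscle, 0.49 for cerebellar, -0.08 for proliferation, -0.53 for blood and marrow, -0.57 for mucosal gland and -1.49 for epidermal and sebaceous markers.

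**Figure D4:**
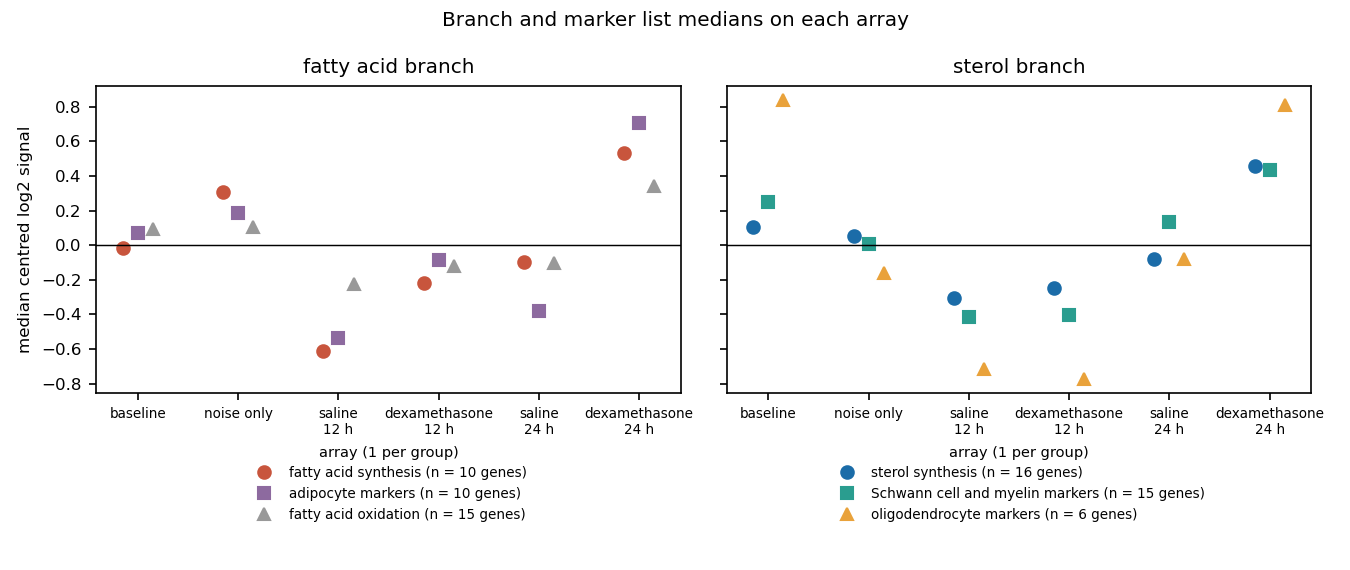
Median of log2 signal minus each gene's mean over the 6 arrays, per array, for the fatty acid branch with adipocyte markers and fatty acid oxidation genes (left) and the sterol branch with Schwann cell, myelin and oligodendrocyte markers (right), 1 array per group. In dexamethasone 24 h the fatty acid branch stands at 0.54 beside adipocyte markers at 0.71, and the sterol branch at 0.46 beside Schwann cell and myelin markers at 0.44.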

How the data were processed

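Cochlear total RNA was labelled with Cy3 and hybridised to one-colour Agilent arrays. The deposited values used here were background-subtracted, detrended signal intensity per spot from Agilent Feature Extraction 10.10.1.1, per the file headers and the submitters' processing notes. The series' deposited log2 values equalled the log2 of those signals minus a constant for each array, for 100% of probes within 0.01. Their medians were -2.98 for noise only, -2.95 for baseline, -2.81 and -2.85 for dexamethasone and saline at 12 h, and -2.90 and -2.93 for dexamethasone and saline at 24 h. The sources used here do not give the rule behind the constant. Control and outlier spots were left out, spots of one probe were averaged, and the 75th percentile of each array was subtracted. A gene was measured in a comparison where its probe was well above background on both arrays. Percentages in brackets are the share of all genes measured on both arrays that met the same criterion. The error of a signal was the software's, which has a preset multiplicative part of 10%. The only test was limma 3.58.1 in R 4.3.3 (lmFit, and eBayes with a trend, on genes that at least 2 of the 4 arrays measured). Its power on simulated data was limited: it found 79% of the genes shifted 4-fold but only 24% of those shifted 2-fold. It also called 17 genes in error. A lack of calls therefore cannot exclude differences of 2-fold. Of the 68 probes, 52 matched a RefSeq accession and all 52 kept the same symbol. All genes of the module were eligible to be named; of each other list, only the highest and lowest difference in a comparison, except marker genes given for a group. The members and lists were chosen with earlier results of these data known. Alternatives were quantile normalization, normexp correction with an offset of 50, the 75th percentile over probes detected on all arrays, spike-in scaling, the deposited log2 values, probe averaging and other filters. The number of arrays limits the precision.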

Additional observations from a re-analysis of the deposited data

Results flagged for a closer look

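For 5 genes, the dexamethasone minus saline difference had opposite signs at 12 h and 24 h and was further apart than spot error allows. With 1 array per group the difference between the times was not tested, and time cannot be told apart from slide. For Mvd the value was -0.19 at 12 h and 0.75 at 24 h, 0.94 apart (spot error interval ± 0.57). Fdps went from -0.24 to 0.63, 0.87 apart. Idi1 went from -0.11 to 0.69, 0.80 apart, and Cyp51 from -0.11 to 0.62, 0.73 apart. For Srebf2 the values of -0.04 and 0.56 were 0.60 apart. With spike-in scaling none of the 5 kept an opposite sign, and the gaps were 0.56, 0.50, 0.43, 0.36 and 0.22 in the same order, all within the interval. A second probe of Srebf2 gave -0.23 and 0.26. The first 4 are sterol synthesis genes, and no gene of fatty acid synthesis met this criterion. No sample could be compared with others of its group, since each group has 1 array.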

How the results depend on the processing

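At 24 h, the dexamethasone minus saline medians of both branches kept their direction and size under every alternative tried. No difference of at least 1.5-fold in a gene of the module changed sign under any. Of 160 values, 35 were at least 1.5-fold, and all 35 stayed within spot error under quantile normalization, normexp, the percentile over detected probes and the deposited log2 values. Averaging a gene's probes moved 2 of the 35 beyond it and spike-in scaling 11. Spike-in scaling shifted the median of all genes to -0.14 for noise only, -0.74 for saline 12 h and -0.30 for saline 24 h against baseline, and to 0.27 at 12 h and -0.09 at 24 h for dexamethasone against saline. The sterol and fatty acid medians became -0.16 and 0.09 after noise only, -1.17 and -1.25 in saline 12 h, -0.54 and -0.46 in saline 24 h, and 0.40 and 0.75 for dexamethasone at 12 h. Relative to the median of all genes they could not change, since that scaling shifts all genes of an array alike. The fatty acid median in saline 12 h was also -0.62 with quantile normalization, -0.60 with normexp and -0.67 with probe averaging. The split of all genes at 1.5-fold, higher and lower, went with spike-in scaling from 1533 and 2087 to 1151 and 2807 after noise only, from 3545 and 2593 to 489 and 15088 in saline 12 h, and from 1126 and 1210 to 492 and 3803 in saline 24 h. For dexamethasone it went from 1256 and 1816 to 4175 and 697 at 12 h, and from 1178 and 1328 to 916 and 1716 at 24 h. In saline 12 h it was 2647 and 3142 with quantile normalization and 1654 and 2005 with normexp. The number of genes that passed limma was 0, but 587 with spike-in scaling (371 higher, 216 lower), 928 with no filter (313 higher, 615 lower) and 0 to 20 when 1 array was left out, the 20 without dexamethasone 12 h. The limma model compares dexamethasone with saline within each time; without the time term 0 genes passed and 784 had an unadjusted p under 0.05. No pairing by replicate number was possible, because the labels carry none. Signal limits little here, since all 32 genes were well above background on every array; the number of arrays does.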
